A study of Naumovozyma castellii with 24 samples.

Results

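The response of wild-type Naumovozyma castellii to cobalt was described across all its genes. Naumovozyma castellii is a budding yeast related to Saccharomyces cerevisiae. The libraries were chosen by their labels, which put 2 of the 24 RNA-seq libraries of the series in the wild type (WT) with CoCl2 and 3 in the untreated WT of the same experiment. Both groups had the strain background DBP004 and carried no deletion. Cultures in rich medium (YPD) and 21% oxygen reached an A600 of 1, and a further 2 h followed with 0.6 mM CoCl2 or with none. The series also holds strains lacking ROX1, ROX2 or both, without and with CoCl2 (4, 5 and 4 libraries), and WT cells kept for 6 h in 21% or 1% oxygen (6 libraries). Of 5648 genes with counts in the files, 5544 had enough counts to be tested. The series' design text calls the replicates biological. The p-values rest on a spread between replicates that was estimated over all 18 libraries of the experiment with the deletion strains, in 8 groups.

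CoCl2 is used in the laboratory as a chemical mimic of low oxygen. In S. cerevisiae, haem and ergosterol synthesis and the desaturation of fatty acids need both oxygen and iron, and the cell reads haem and sterol levels as a measure of oxygen. The repressor Rox1 and the activators Hap1, Upc2, Ecm22 and Mga2 act on these genes, while the Hap2-Hap3-Hap4-Hap5 complex switches on respiration. Roles given here are those of the S. cerevisiae gene of the same name.

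The WT libraries held 12738873, 12493788 and 10432540 gene counts, and the CoCl2 libraries 9544013 and 7404751. Reads outside genes made up 7.9% and 7.89% of the CoCl2 libraries, while in WT the highest value was 5.19%, and the part of this in the results was not tested. Levels are CPM scaled by TMM, a normalization factor per library. CPM gives the share of a gene in the counts of a library, and the amount of RNA per cell was not measured. Values are listed in the order of the replicate numbers.

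CoCl2 changed the level of 2607 genes, or 47% of those tested. By edgeR's quasi-likelihood test with Benjamini-Hochberg adjustment, 1533 rose (27.7%) and 1074 fell (19.4%). The response was lopsided in size. At least 2-fold rises numbered 822 (14.8%) and such falls 429 (7.74%), and at least 4-fold rises numbered 269 (4.85%) against 22 falls (0.397%). The CoCl2 libraries lay wholly above or wholly below the WT libraries for 4233 genes (76.4%), and 3 called genes had overlapping groups. Without CoCl2 replicate 1 the calls were 1009 higher and 461 lower, with 203 falls of at least 2-fold. Without CoCl2 replicate 2 such falls numbered 757. With total counts in place of TMM, 1872 rose and 623 fell. In all, 739 called genes were on the 46 gene lists described here and 1868 were on none.

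The 2 CoCl2 libraries differed in how far the growth genes fell. Between them 454 genes differed at least 2-fold, 116 higher in replicate 1 and 338 higher in replicate 2. Between any 2 WT libraries at most 28 did. Of the 338 genes, 83 were among the 116 tested ribosome biogenesis genes and 52 among the 108 genes of cytosolic ribosomal proteins. No member of either list was 2-fold higher in replicate 1. Of 26 ergosterol genes and 13 haem genes none differed 2-fold in either direction. The median ribosome biogenesis gene stood 1.53 log2 units under the WT mean in replicate 1 and 0.31 under it in replicate 2. For the respiratory chain the same medians were 2.53 and 2.17 above. Values from both CoCl2 libraries are therefore given beside each gene, and genes picked as examples kept their call in every alternative fit unless the text says otherwise.

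**Figure D1:**
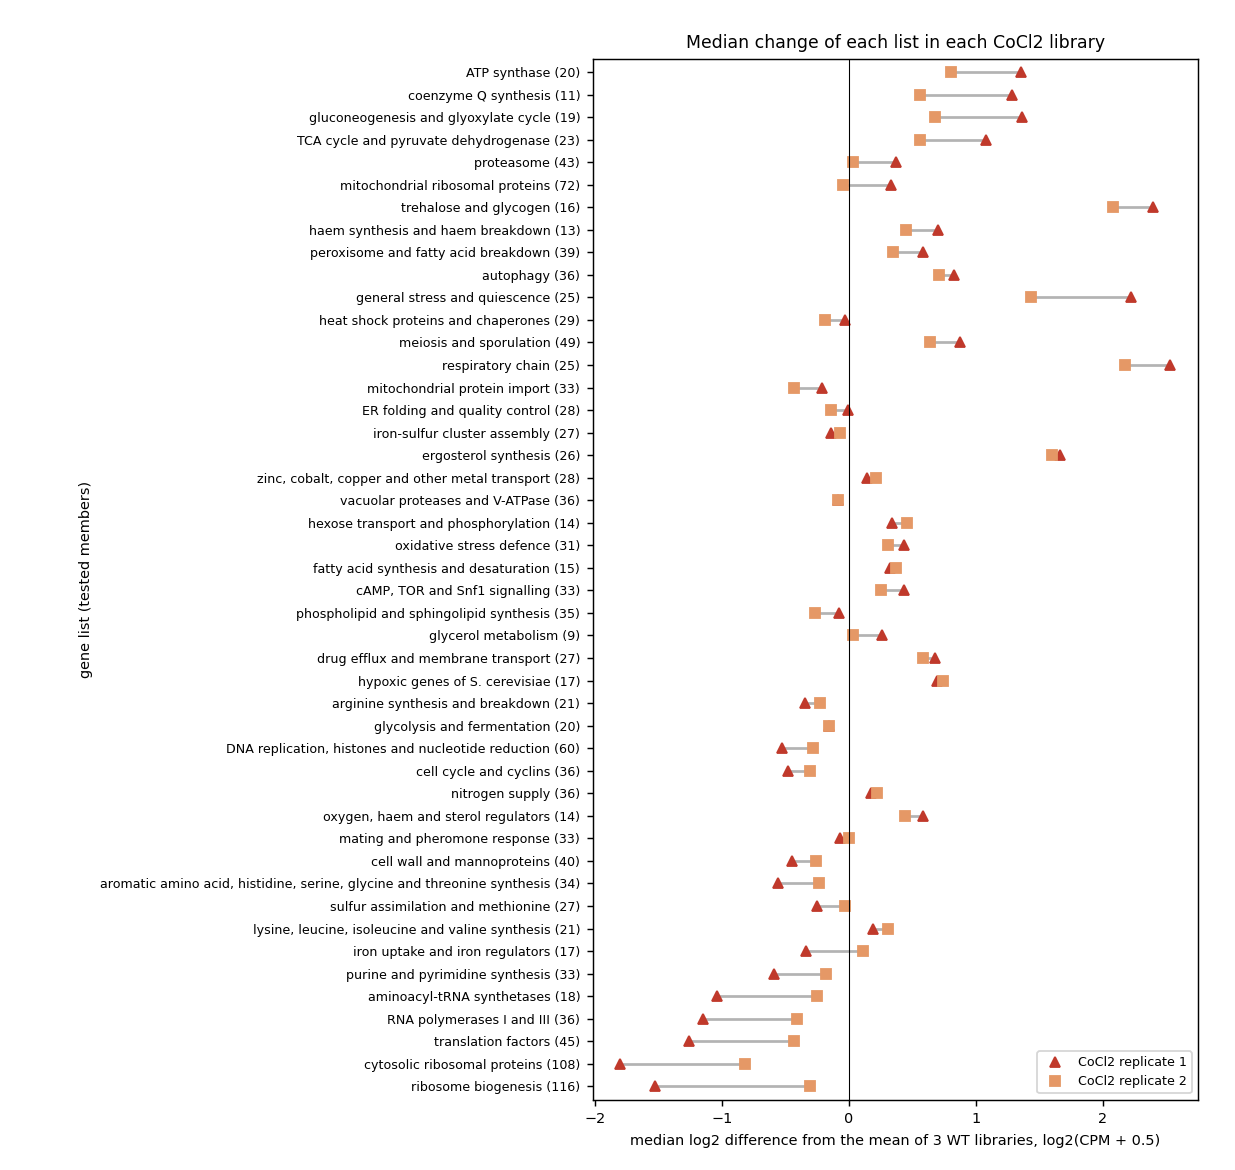
Median change of 46 gene lists in each CoCl2 library. The x axis is the median log2 difference of the tested members from the mean of the 3 WT libraries, and the numbers in brackets are the tested members. The lists at the bottom, led by ribosome biogenesis (−1.53 in replicate 1 and −0.31 in replicate 2), fell further in replicate 1, while ergosterol synthesis stood at 1.66 and 1.60.

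The largest rises were ranked among genes with a mean log2 CPM of at least 4 over all 18 libraries, CoCl2 libraries included. A gene near the floor in WT can pass through the groups where it is high, and its fold change then rests on few WT reads. The 2 largest rises with CoCl2 were those of NCAS0B01030 (82.7-fold) and NCAS0B02500 (79.4-fold), which carry no gene name. YHB1 and HMX1 came next. YHB1 (NCAS0F00560), the flavohaemoglobin that removes nitric oxide, had 26.1, 28.9 and 39.5 CPM in WT and 1688 and 2156 CPM with CoCl2. HMX1 (NCAS0E02890), the haem oxygenase, had 4.24, 4.17 and 2.11 CPM and then 235 and 159 CPM. Every CoCl2 library was far above every WT library for both genes, and lack of overlap was a condition of the ranking. Their fold changes were 61.1 (log2 5.93, SE 0.361, adjusted p = 2.82e-07) and 55.2 (log2 5.79, SE 0.419, adjusted p = 6.1e-07). EGO4 (NCAS0A05440) went from 1.27, 1.06 and 1.37 CPM to 57.5 and 58.7 CPM, a 46.7-fold rise (SE of log2 0.57, adjusted p = 8.94e-06), and its 2 CoCl2 libraries were nearly equal. HSP26 (NCAS0A10710), a small heat shock protein, went from 9.15, 7.1 and 10.2 CPM to 528 and 245 CPM, with fold changes of 43.8 overall and 27.8 without CoCl2 replicate 1. IDP2 (NCAS0A08720), the cytosolic isocitrate dehydrogenase that makes NADPH, went from 1.95, 0.976 and 1.27 CPM to 83.2 and 37.1 CPM, with fold changes of 42.5 overall and 26.1 without CoCl2 replicate 1.

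Next in the order of fold change stood enzymes and carriers of several kinds. RGI2, a gene induced in respiratory growth, had 0.678, 1.15 and 1.16 CPM in WT and 61.5 and 10.5 with CoCl2. Its 36.4-fold rise became 10.5-fold without CoCl2 replicate 1 and 61.5-fold without replicate 2. PGM2, the phosphoglucomutase that links glucose 6-phosphate with glycogen and trehalose, went from 15.7, 22.9 and 51.1 CPM to 979 and 730 CPM, 28.7-fold, or 43.1-fold without WT replicate 3. PIC2 (NCAS0E03120), a mitochondrial carrier of phosphate and copper, went from 4.24, 6.39 and 8.23 CPM to 173 and 175 CPM, 27.8-fold (adjusted p = 2.96e-06). GDH2 (NCAS0D00390), the glutamate dehydrogenase that releases ammonium from glutamate, went from 6.19, 4.44 and 4.96 CPM to 169 and 118 CPM, 27.5-fold (adjusted p = 5.54e-06). Groups without overlap, as in 76.4% of all tested genes, were a condition for the 15 largest rises. The 15 largest rises also held NCAS0B01030, NCAS0B02500, NCAS0C00720, NCAS0C05630, NCAS0I03000 and NCAS0B00360, which the annotation table names by locus only. NCAS0C05630 had 31.5, 29 and 32.4 CPM in WT and 967 and 1028 CPM with CoCl2. NCAS0B01030 reached 644 and 995 CPM and NCAS0C00720 1188 and 1402 CPM. For NCAS0C00720 the 53.1-fold rise was 80.9-fold without WT replicate 3. Multimapping reads were not counted, so levels of genes with near-identical copies, which were not looked for by sequence, are uncertain.

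The largest falls were smaller in size than the largest rises. NCAS0H01220 had 42, 41.5 and 36.5 CPM in WT and 5.45 and 8.21 CPM with CoCl2, 5.94-fold lower (log2 −2.57, SE 0.3, adjusted p = 2.41e-05). RPL43B, of the large ribosomal subunit, had 278, 298 and 294 CPM and then 38.4 and 78.7 CPM. RPL43B was 4.97-fold lower overall and 7.54-fold lower without CoCl2 replicate 2. For both genes the groups stayed apart. LGE1, which acts in histone H2B ubiquitination, went from 147, 150 and 151 CPM to 24.9 and 37.4 CPM, 4.81-fold lower. CCW12, a major cell wall mannoprotein, went from 7943, 8697 and 9006 CPM to 1719 and 2299 CPM, 4.26-fold lower (adjusted p = 3.67e-05). GPP2, a glycerol phosphatase, went from 3011, 3109 and 2841 CPM to 772 and 745 CPM, 3.94-fold lower (adjusted p = 0.0001). DCC1, of an alternative clamp loader that acts in sister chromatid cohesion, went from 44, 40.3 and 47.2 CPM to 13 and 9.3 CPM. In each of these genes both CoCl2 libraries lay under all WT libraries, as the rule for the largest falls required. Of all tested genes 76.4% had groups without overlap.

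**Figure D2:**
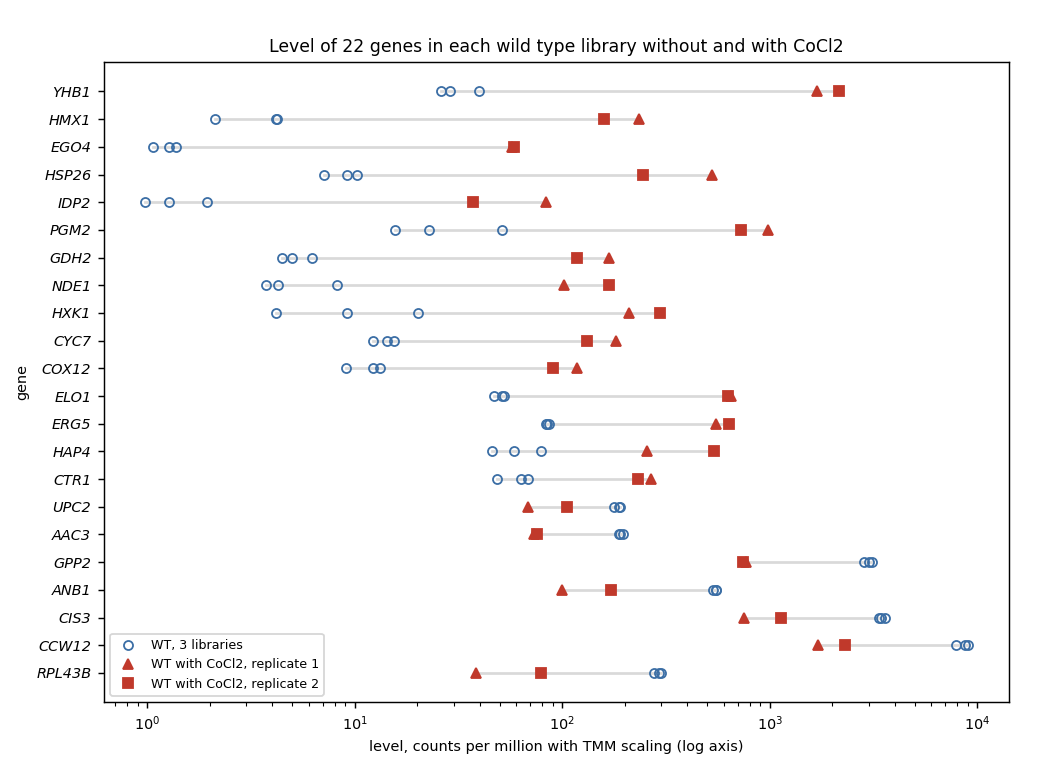
Level of 22 genes in each WT library (open circles) and in CoCl2 replicates 1 (triangles) and 2 (squares). The x axis is CPM with TMM scaling on a log axis. YHB1 and HMX1 sit far to the right with CoCl2 (1688 and 2156 CPM, and 235 and 159 CPM), and CCW12 and RPL43B sit to the left of their WT libraries.

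Most haem genes on the list rose, and the haem oxygenase HMX1 rose far more than any other. Of 13 tested genes of haem synthesis, haem attachment and haem breakdown, 8 rose (61.5%) and none fell. Among all tested genes 27.7% rose and 19.4% fell. The median log2 fold change of the list was 0.63 against 0.00 for all genes. HMX1 apart, the largest steady rise was that of HEM12, the uroporphyrinogen decarboxylase, from 216, 202 and 214 CPM to 583 and 444 CPM. HEM12 rose 2.43-fold (SE of log2 0.186, adjusted p = 0.000117). HEM13, the oxygen-using coproporphyrinogen oxidase and a classic hypoxic gene, went from 208, 194 and 249 CPM to 444 and 361 CPM, 1.86-fold (adjusted p = 0.00319). The libraries of the groups did not overlap for either gene, as for 76.4% of all tested genes. HEM14 and HEM2 rose less (log2 0.63 and 0.50), and they lost their calls without CoCl2 replicate 1 (adjusted p = 0.0649 and 0.0987), HEM2 also without WT replicate 1 or 2 (0.0637 and 0.0816). The first enzyme of the pathway, HEM1, had a log2 fold change of 0.33 (adjusted p = 0.173), and the last, the ferrochelatase HEM15, of 0.23 (adjusted p = 0.48). HEM3 stood at −0.02. The count of 8 became 3 without CoCl2 replicate 1 and 5 without WT replicate 2.

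Regulators of the oxygen, haem and sterol response moved in both directions. Of 14 tested, 7 rose (50%) and 3 fell (21.4%), with a median of 0.44. Among all tested genes 27.7% rose and 19.4% fell, so the share of falls was near that of all genes. HAP4, the limiting subunit of the activator of respiration, had 46.1, 58.3 and 79.4 CPM in WT and 256 and 537 CPM with CoCl2. It rose 6.47-fold (log2 2.69, SE 0.553, adjusted p = 0.00144), or 4.18-fold without CoCl2 replicate 2. Its partners HAP2 and HAP5 rose 2.29- and 2.14-fold, while HAP3 had 7.63, 7.72 and 10.1 CPM in WT and 10.6 and 6.98 with CoCl2, and its groups overlapped. The haem-bound activator HAP1 rose evenly, from 135, 136 and 139 CPM to 279 and 280 CPM (2.05-fold, SE of log2 0.118, adjusted p = 2.03e-05). MGA2, which senses membrane lipids and drives the desaturase gene, went from 1103, 1054 and 1068 CPM to 2084 and 2234 CPM. ROX1 itself rose 1.76-fold, from 18.3, 19.1 and 20.1 CPM to 35.1 and 32.6 CPM. IXR1, a repressor of COX5B, fell 2.1-fold, from 111, 112 and 117 CPM to 57 and 51 CPM. TUP1 and MOT3, which work with Rox1 in S. cerevisiae, stood at log2 0.05 and 0.01 (adjusted p = 0.846 and 0.977).

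The sterol regulators UPC2 and ECM22, a pair of related activators, went opposite ways. UPC2 had 188, 189 and 178 CPM in WT and 68.7 and 106 CPM with CoCl2 (log2 −1.09, SE 0.228, adjusted p = 0.00168). ECM22 had 397, 416 and 420 CPM and then 905 and 1234 CPM (log2 1.38, SE 0.172, adjusted p = 3.91e-05). Their CoCl2 libraries lay on opposite sides of the WT libraries. Among all tested genes 27.7% rose and 19.4% fell, and whether unrelated pairs go opposite ways as often was not tested. Of 50 pairs of related enzymes or factors with both genes tested, 4 were called in opposite directions. The others were the mitochondrial ADP/ATP carriers PET9 (1.69) and AAC3 (−1.36), the Hsp70 genes SSA3 (2.11) and SSA2 (−0.90), and the RNA helicases DBP1 (2.00) and DED1 (−1.47), as log2 fold changes. AAC3 went from 189, 196 and 187 CPM to 73 and 75.7 CPM, and PET9 from 93.1, 98.3 and 106 CPM to 361 and 279 CPM. The groups of PET9 and AAC3, like those of UPC2 and ECM22, did not overlap, as for 76.4% of all tested genes. DBP1 went from 54, 60.8 and 88 CPM to 334 and 205 CPM. SSA3 and DED1 lost their calls without CoCl2 replicate 1 (adjusted p = 0.0894 and 0.223), where SSA3 was 2.37-fold higher against 4.33-fold overall. DED1 was 2.77-fold lower overall and 4.65-fold lower without CoCl2 replicate 2, and SSA2 lost its call without replicate 2 (0.076). The pairs were written down after the files had been read.

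The list of genes that S. cerevisiae switches on in low oxygen also holds the aerobic form HYP2. Its members moved in both directions. Of 17 tested, 10 rose (58.8%) and 5 fell (29.4%), beside 27.7% and 19.4% of all tested genes (median 0.82). Those that rose were led by CYC7, the hypoxic form of cytochrome c, with 14.3, 12.3 and 15.5 CPM in WT and 181 and 131 CPM with CoCl2. CYC7 rose 11.1-fold (SE of log2 0.36, adjusted p = 9.27e-06). The aerobic form CYC1 rose as well, from 51.9, 64 and 54.1 CPM to 179 and 171 CPM (3.09-fold, adjusted p = 0.000264). COX5B, the hypoxic subunit of cytochrome oxidase, went from 38.1, 46.9 and 41.7 CPM to 196 and 144 CPM. AUS1, which imports sterol, went from 282, 281 and 286 CPM to 457 and 721 CPM, and OLE1, the desaturase of fatty acids, from 5096, 4858 and 4893 CPM to 7532 and 8000 CPM. The groups did not overlap for any of these 5 genes, as for 76.4% of all tested genes. ANB1, the hypoxic form of translation factor eIF5A, went the other way, from 533, 549 and 550 CPM to 99.8 and 172 CPM. Its aerobic form HYP2 fell too, from 2267, 2412 and 2249 CPM to 966 and 1552 CPM. HYP2, the mannoprotein gene TIR3 and the sterol uptake regulator SUT1 lost their calls without CoCl2 replicate 1 (adjusted p = 0.204, 0.0755 and 0.13), which left 2 of the 5 falls, ANB1 and AAC3. PDR11, a second sterol importer, had 710, 682 and 665 CPM in WT and 415 and 792 CPM with CoCl2, on both sides of the WT libraries.

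WT cells kept in 1% oxygen gave another picture of the same genes. That comparison shares no library with the CoCl2 comparison, and its time was 6 h. It came from another library type and provider and was fitted apart, so levels are not compared between the experiments. Of 5559 genes tested there, 147 rose (2.64%) and 214 fell (3.85%). HMX1 had 21.1 ± 3.07 CPM (SD, n = 3) in 21% oxygen and 1.24 ± 0.32 in 1% oxygen, a log2 fold change of −4.07 (adjusted p = 3.97e-06), against 5.79 with CoCl2. YHB1 had 43.9 ± 2.67 and 22.9 ± 2.29 CPM, a log2 fold change of −0.94, against 5.93 with CoCl2. CYC1 stood at −1.44 and HAP4 at −1.07 in 1% oxygen, the latter with an adjusted p of 0.0608. Of the 25 respiratory chain genes, which all rose with CoCl2, 18 fell and 1 rose in 1% oxygen (median −0.56). Of the 26 ergosterol genes, 24 rose with CoCl2, and 20 fell and none rose in 1% oxygen (median −0.42). Of 31 genes of oxidative stress defence, 15 rose and 2 fell with CoCl2, and none rose and 14 fell in 1% oxygen. HEM13 and AUS1 rose in both comparisons, with log2 fold changes of 0.65 and 0.55 in 1% oxygen and 0.89 and 1.06 with CoCl2. ANB1 rose in 1% oxygen (1.00, adjusted p = 7.15e-06), the opposite of its fall with CoCl2. Among the 269 genes at least 4-fold higher with CoCl2, 263 were tested there, of which 18 rose (6.84%) and 30 fell (11.4%) in 1% oxygen.

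**Figure D3:**
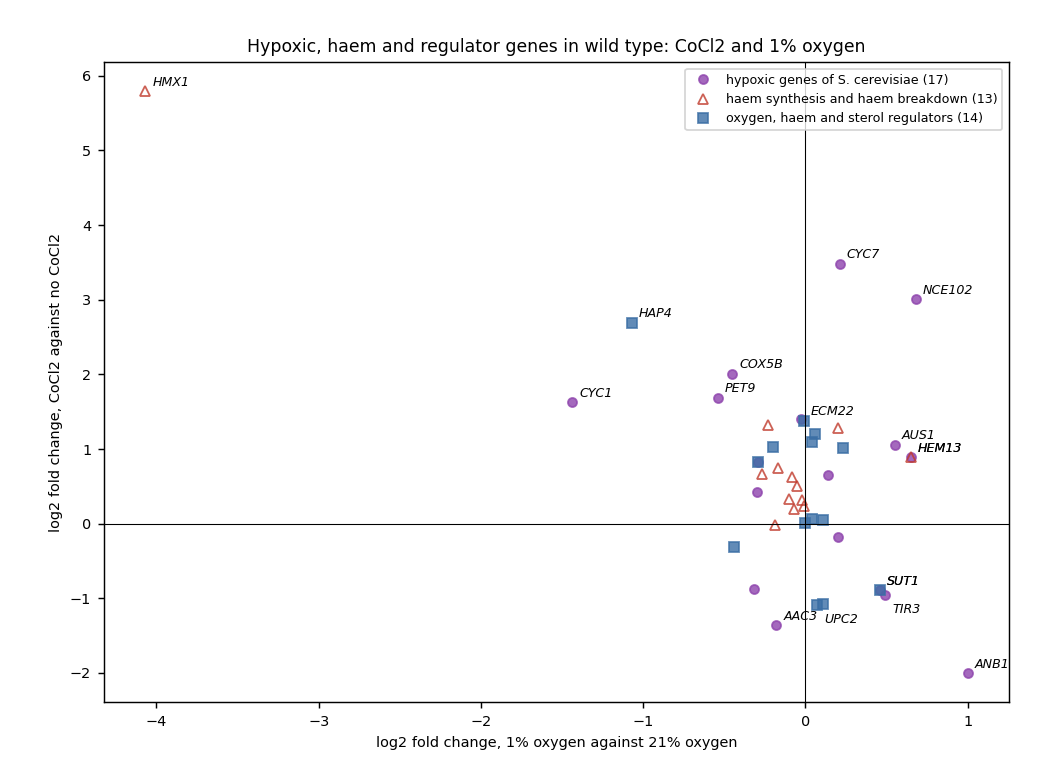
The y axis is the log2 fold change with CoCl2 and the x axis that in 1% oxygen, both in WT. Shown are 17 genes of the hypoxic list, 13 haem and 14 regulator genes. The experiments were fitted apart. HMX1 lies at 5.79 and −4.07, ANB1 fell with CoCl2 and rose in 1% oxygen, and HEM13 and AUS1 rose in both.

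Ergosterol synthesis rose evenly in both CoCl2 libraries. Its share of all gene counts went from 0.455%, 0.457% and 0.472% to 1.85% and 1.54%. Of 26 tested genes 24 rose, 21 of them at least 2-fold, and none fell. Among all tested genes 27.7% rose, and the median log2 fold change of the list was 1.67. ERG5, the C-22 desaturase and a cytochrome P450, had 83.6, 86.8 and 84.5 CPM in WT and 554 and 638 CPM with CoCl2 (log2 2.81, SE 0.178, adjusted p = 3.4e-07). ERG28, the scaffold of the C-4 demethylation enzymes, went from 30.4, 36.8 and 38.8 CPM to 255 and 225 CPM. ERG26, a C-4 demethylation enzyme, went from 121, 119 and 134 CPM to 678 and 510 CPM. MVD1, of the mevalonate pathway that feeds sterol synthesis, went from 148, 148 and 163 CPM to 748 and 661 CPM. These rises were 7.01-, 6.78-, 4.77- and 4.61-fold. The groups did not overlap for these genes, as for 76.4% of all tested genes.

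Other lipid genes were mixed, beside 27.7% rises and 19.4% falls among all tested genes. Of 15 genes of fatty acid synthesis and desaturation 6 rose and 1 fell (median 0.24). ELO1, which lengthens medium-chain fatty acids, rose 12.8-fold, from 51.4, 46.8 and 52.4 CPM to 651 and 632 CPM (SE of log2 0.245, adjusted p = 3.99e-07). ELO2, which makes very long chains for sphingolipids, fell 2.15-fold, from 172, 162 and 173 CPM to 69 and 88.2 CPM. FAS1, the beta subunit of fatty acid synthase, rose 2.36-fold. Of 35 phospholipid and sphingolipid genes 7 rose and 9 fell, which became 4 and 4 without CoCl2 replicate 1. PAH1, the phosphatidate phosphatase that steers lipid to storage, rose 3.65-fold, from 127, 110 and 131 CPM to 488 and 409 CPM. The sphingolipid enzymes LCB1 and LAC1 and the inositol transporter ITR1 fell 1.65-, 1.88- and 2.08-fold. Of 39 genes of the peroxisome and of fatty acid breakdown 20 rose and 3 fell. That count of rises was 7 without CoCl2 replicate 1 and 12, 10 and 11 without WT replicates 1, 2 and 3.

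The respiratory chain rose in full, beside 27.7% rises among all tested genes. All 25 tested genes were called higher and each was at least 2-fold higher, with a median log2 fold change of 2.34. Without CoCl2 replicate 1 the number was 24. Their share of counts went from 0.0547%, 0.0588% and 0.062% to 0.411% and 0.303%. NDE1, the external NADH dehydrogenase, had 3.73, 4.26 and 8.23 CPM in WT and 102 and 169 CPM with CoCl2, 25.3-fold higher (SE of log2 0.477). COX12 and COX7, small subunits of cytochrome oxidase, went from 9.07, 12.2 and 13.3 to 118 and 90.4 CPM and from 8.14, 9.14 and 10.9 to 69.5 and 98.1 CPM. CYT1, cytochrome c1, went from 22.4, 25.4 and 27.7 CPM to 190 and 178 CPM. The groups did not overlap for any of the 25, and for 76.4% of all tested genes they did not either.

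Mitochondrial genes outside the chain did not all follow. Among all tested genes 27.7% rose and 19.4% fell. ATP synthase had 16 of 20 genes rise and none fall (median 1.05), among them ATP5, which went from 137, 138 and 150 CPM to 414 and 448 CPM. In the TCA cycle and pyruvate dehydrogenase 18 of 23 rose and 1 fell (median 0.83), and 11, 10 and 10 rose without WT replicate 1, WT replicate 2 or CoCl2 replicate 1. MPC3, the pyruvate carrier subunit used in respiration, went from 0.593, 0.887 and 1.48 CPM to 10.2 and 17.5 CPM, 14.1-fold, while MPC2, its counterpart in fermentation, stood at log2 0.14 (adjusted p = 0.433). SDH4, of succinate dehydrogenase, went from 2.37, 3.64 and 4.22 CPM to 28 and 23.7 CPM. Coenzyme Q synthesis had 6 of 11 genes rise, or 10 without CoCl2 replicate 2, with COQ2 at 4.37-fold. Of 72 mitochondrial ribosomal protein genes 15 rose (20.8%) and 4 fell (5.56%), both shares under those of all genes (median 0.15). The rises numbered 5 and 23 without CoCl2 replicates 1 and 2, and the falls 2 and 1 without WT replicate 3 or CoCl2 replicate 2. Mitochondrial protein import had 14 of 33 genes lower and 1 higher (median −0.28). TOM5, of the outer membrane translocase, went from 120, 122 and 118 CPM to 47.7 and 38.4 CPM, and TIM12, of the inner membrane carrier translocase, from 58.3, 55.4 and 54.1 CPM to 17.5 and 24.5 CPM. With total counts 6 import genes were lower.

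**Figure D4:**
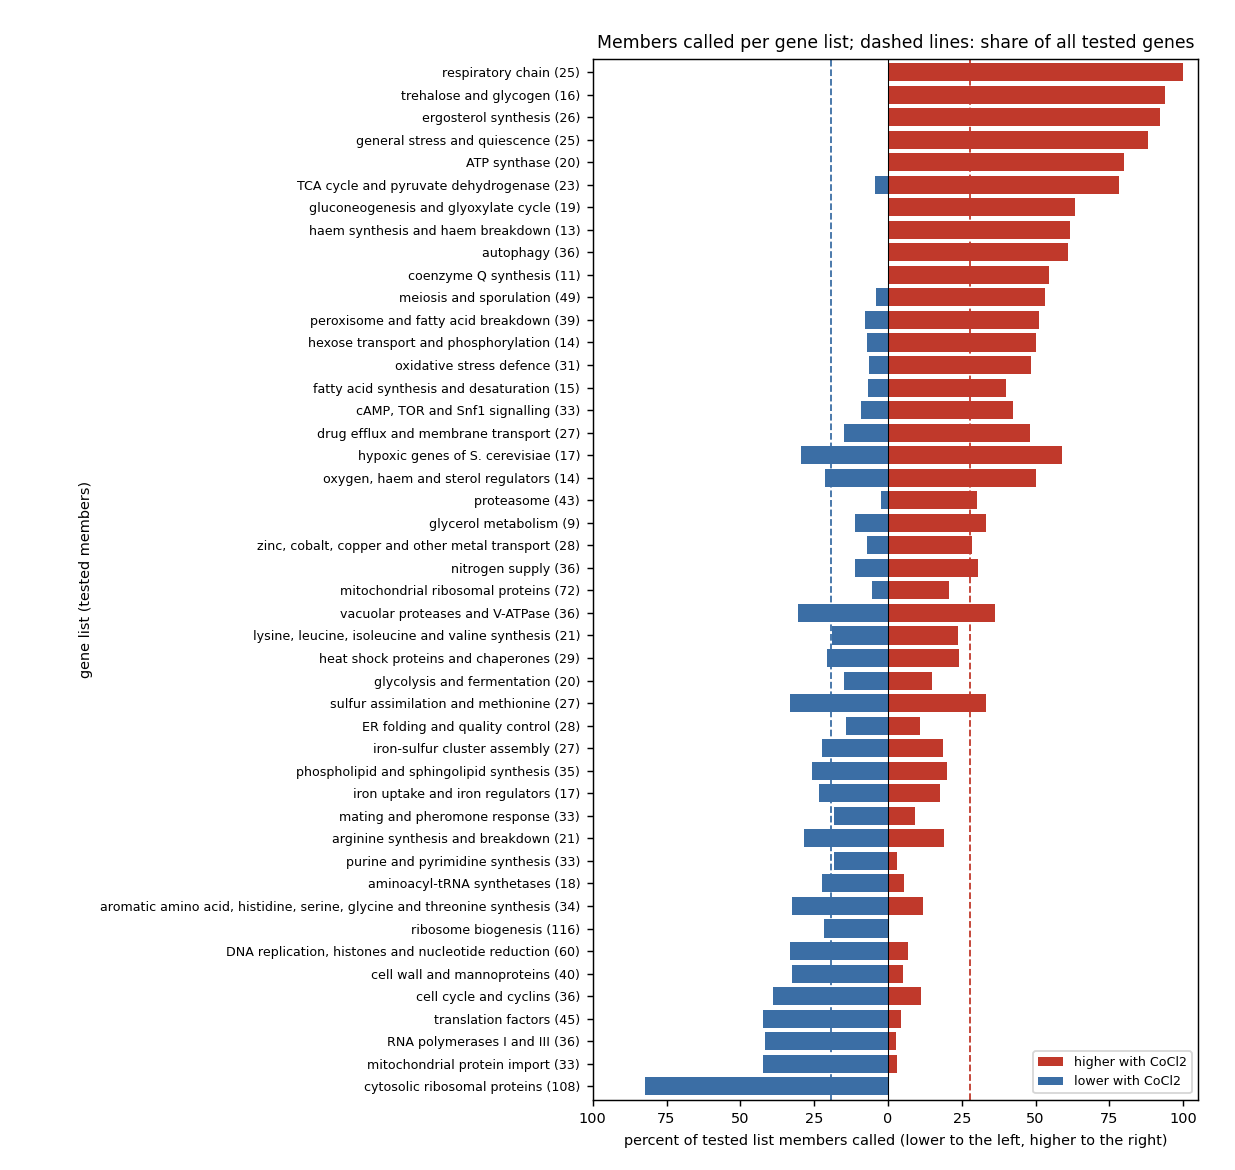
Share of the tested members of 46 gene lists called higher (right) or lower (left) with CoCl2. The x axis is in percent, the numbers in brackets are the tested members, and the dashed lines mark all tested genes (27.7% and 19.4%). The respiratory chain, trehalose and glycogen, and ergosterol synthesis stand at the top and cytosolic ribosomal proteins at the bottom.

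Nearly all tested genes of reserve carbohydrates rose, beside 27.7% of all tested genes. Of 16 trehalose and glycogen genes 15 rose, all at least 2-fold, and none fell (median 2.25). Their share of counts went from 0.101%, 0.0947% and 0.132% to 1.04% and 0.678%. GPH1, glycogen phosphorylase, had 176, 157 and 236 CPM in WT and 2802 and 2167 CPM with CoCl2, 13.1-fold higher (SE of log2 0.478, adjusted p = 4.97e-05). PIG2, a regulatory subunit of the phosphatase that activates glycogen synthase, rose 9.64-fold, from 10.2, 9.85 and 16 CPM to 95.4 and 136 CPM. HXK1 and GLK1, both glucose-phosphorylating enzymes, went from 4.15, 9.14 and 20.1 to 210 and 295 CPM and from 79.9, 117 and 265 to 2884 and 1690 CPM. WT replicate 3 was the highest untreated library for both, as for PGM2. The 22.9-fold rise of HXK1 was 36.8-fold without that library, and the 14.9-fold rise of GLK1 was 22.7-fold. HXK2, the main hexokinase in glucose, stood at log2 0.13 (adjusted p = 0.688).

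Glycolysis itself moved little as a list, with 3 of 20 genes higher and 3 lower (median −0.17). Among all tested genes 27.7% rose and 19.4% fell. TDH2, a glyceraldehyde-3-phosphate dehydrogenase, rose 2.19-fold, from 6369, 5811 and 7324 CPM to 14934 and 13584 CPM. PDC1, pyruvate decarboxylase, went from 21266, 22353 and 22335 CPM to 5446 and 9651 CPM, 2.91-fold lower (adjusted p = 0.00291, and 0.0539 without CoCl2 replicate 1). ADH1 fell 2.14-fold, from 250, 274 and 283 CPM to 133 and 119 CPM. The CoCl2 libraries of ADH1 and PDC1 lay under all WT libraries, and 76.4% of all tested genes had groups without overlap. Of 19 genes of gluconeogenesis and the glyoxylate cycle 12 rose and none fell (median 1.37). CAT8 and SIP4, activators of growth on non-sugar carbon, rose 17- and 4.61-fold, with CAT8 at 9.21-fold without CoCl2 replicate 1. Of 9 genes of glycerol metabolism 3 rose and 1 fell (median 0.15). GUT1, glycerol kinase, went from 19.3, 19.3 and 21.4 CPM to 95.6 and 177 CPM (6.8-fold, adjusted p = 1.48e-06), and the gene that fell was GPP2, given above. The other glycerol phosphatase gene, GPP1, stood at log2 0.76 (adjusted p = 0.43).

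Stress genes rose in part. Of 25 general stress and quiescence genes 22 rose, 17 of them at least 2-fold, and none fell (median 2.00). YGP1, a secreted glycoprotein of the stationary phase, went from 59.8, 96.6 and 152 CPM to 1645 and 1802 CPM, 16.8-fold. FMP16 went from 4.49, 4.7 and 7.49 CPM to 99.2 and 55.5 CPM. Its groups, like those of YGP1 and of 76.4% of all tested genes, did not overlap. Heat shock genes split, with 7 of 29 higher and 6 lower (median −0.25), shares near the 27.7% and 19.4% of all tested genes. The disaggregase HSP104 and the small heat shock protein HSP42 rose 11.3- and 6.75-fold. HSP104 went from 97.5, 94.9 and 132 CPM to 1008 and 1428 CPM. Conversely HSF1, the heat shock factor, had 148, 149 and 152 CPM and then 78.5 and 78.8 CPM, 1.9-fold lower (adjusted p = 0.000335), and the Hsp40 SIS1 fell 2-fold from 73.2, 79.2 and 76.2 CPM to 41.1 and 34.9 CPM. Of the 31 genes of oxidative stress defence, GPX1, a glutathione peroxidase, rose 6.25-fold from 3.73, 3.82 and 3.8 CPM to 23.7 in each CoCl2 library. SKN7, a regulator of that defence, fell 1.65-fold. The 15 rises on that list numbered 6 without CoCl2 replicate 1 and 7 without WT replicate 1 or 2.

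Genes of metals moved individually rather than as lists. Among all tested genes 27.7% rose and 19.4% fell. Of 17 genes of iron uptake and its regulators 3 rose and 4 fell (median 0.07), and the falls were 2 without CoCl2 replicate 1. The high-affinity uptake pair stayed near the WT level, with FET3 at 2401, 2433 and 2415 CPM in WT and 1817 and 2075 CPM with CoCl2 (log2 −0.31, adjusted p = 0.243) and FTR1 at log2 0.10 (adjusted p = 0.707). LSO1, a small gene that responds to iron in S. cerevisiae, went from 648, 685 and 652 CPM to 188 and 253 CPM, 3.01-fold lower (SE of log2 0.283, adjusted p = 0.000524). BOL2, which restrains the iron activators, fell 1.84-fold, from 28.1, 29.4 and 30.3 CPM to 15.8 and 16 CPM. GRX4, a glutaredoxin in the same pathway, rose 2.12-fold, and CCC2, which loads copper into the iron uptake oxidase, rose 1.72-fold, from 685, 714 and 685 CPM to 1193 and 1189 CPM. AFT1, the main iron activator, stood at log2 −0.36 (adjusted p = 0.268, and 0.0166 with the 5 libraries fitted alone).

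Of 28 genes of zinc, cobalt, copper and other metal transport 8 rose and 2 fell (median 0.19), a share of rises close to that of all genes and a smaller share of falls. With total counts 13 rose. COT1, named for cobalt tolerance and a vacuolar carrier of zinc and cobalt, had 361, 360 and 352 CPM in WT and 380 and 412 CPM with CoCl2 (log2 0.15, SE 0.164, adjusted p = 0.466). Its relative ZRC1 rose 2.96-fold, from 21, 24.7 and 24.6 CPM to 73.6 and 65.1 CPM (adjusted p = 0.00238). CTR1, the copper importer, rose 4.16-fold, from 48.5, 68.7 and 63.6 CPM to 268 and 233 CPM (adjusted p = 0.00079), and the copper-sensing activator CUP2 rose 2.47-fold. IZH4, a membrane protein linked to zinc and sterols, rose 3.84-fold. MRS2, the mitochondrial magnesium channel, and YKE4, a zinc transporter, fell 1.82- and 1.95-fold. Iron-sulfur cluster genes gave 5 rises (18.5%) and 6 falls (22.2%) among 27, beside 27.7% and 19.4% of all tested genes. ISA2, of the late mitochondrial assembly step, rose 5.28-fold, from 2.71, 3.55 and 3.27 CPM to 18.3 and 15.2 CPM (adjusted p = 1.56e-05), while its partner ISA1 stood at log2 −0.16 (adjusted p = 0.53). The 5 rises were 3, 2 and 2 without WT replicate 1, WT replicate 2 or CoCl2 replicate 1, and the 6 falls were 2 and 3 without CoCl2 replicates 1 and 2 and 0 with total counts.

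Cytosolic ribosomal proteins had the largest number of falls of any list. Of 108 genes of cytosolic ribosomal proteins 89 fell, 82 of them at least 2-fold, and none rose (median −1.23). Against 76.4% of all tested genes, the CoCl2 libraries lay wholly apart from the WT libraries for all 108, called or not. Their share of counts went from 15%, 15.9% and 15.2% to 5.47% in replicate 1 and 8.97% in replicate 2. RPS28A, of the small subunit, went from 318, 338 and 345 CPM to 61 and 79.5 CPM, 4.75-fold lower. RPP2A, of the ribosomal stalk, went from 1245, 1396 and 1423 CPM to 189 and 411 CPM, with falls of 4.52-fold overall and 7.17-fold without CoCl2 replicate 2. The 89 calls became 12 without CoCl2 replicate 1. Of 116 ribosome biogenesis genes 25 fell and none rose (median −0.79), and the number was 0 without CoCl2 replicate 1, 94 without CoCl2 replicate 2 and 16 without WT replicate 2. NOP6, of the small subunit assembly line, had 263, 279 and 261 CPM in WT and 48.5 and 124 CPM with CoCl2 (adjusted p = 0.0108, and 0.138 without replicate 1). It was 3.11-fold lower with all libraries and 5.52-fold lower without CoCl2 replicate 2. The 25 falls made up 21.6% of the ribosome biogenesis genes, a share near the 19.4% of all tested genes.

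RNA polymerases I and III, which make ribosomal and transfer RNA, had 15 of 36 genes lower and 1 higher, or 4 lower without CoCl2 replicate 1. RPC34, of RNA polymerase III, went from 156, 167 and 153 CPM to 32.8 and 62 CPM, 3.36-fold lower. RRN5, of an initiation factor of RNA polymerase I, went from 51.9, 51.5 and 49.8 CPM to 16.5 and 20 CPM. Both genes had all CoCl2 values under all WT values, and 76.4% of all tested genes had groups without overlap. Translation factors had 19 of 45 lower and 2 higher, which became 4 and 33 lower without CoCl2 replicates 1 and 2. TEF2, elongation factor eEF1A, fell 2.89-fold, from 3968, 4178 and 4345 CPM to 1148 and 1735 CPM. Of the aminoacyl-tRNA synthetases 22.2% fell, a share near the 19.4% of all tested genes. Aminoacyl-tRNA synthetases gave 4 falls among 18, or 0, 13 and 2 without CoCl2 replicate 1, CoCl2 replicate 2 or WT replicate 2.

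Amino acid and nitrogen genes showed no common direction, beside 27.7% rises and 19.4% falls among all tested genes. Of 27 sulfur and methionine genes 9 rose and 9 fell, or 4 fell without CoCl2 replicate 1. MUP3, a methionine permease, rose 9.61-fold, from 3.22, 2.57 and 2.85 CPM to 25.5 and 30.2 CPM (adjusted p = 3.63e-07), and MET13, which makes methyltetrahydrofolate, rose 4.31-fold. MET4, the activator of the pathway, fell 1.85-fold, from 53.7, 61.4 and 57.9 CPM to 27.9 and 34.5 CPM. In arginine metabolism 4 of 21 rose and 6 fell, with ARG1 2.79-fold lower and PUT2, of proline breakdown, 2.56-fold higher. Those rises were 1 without any WT library or CoCl2 replicate 1, and the falls were 2 without CoCl2 replicate 1. Of 34 genes for aromatic amino acids, histidine, serine, glycine and threonine 4 rose and 11 fell, or 2 fell without CoCl2 replicate 1. ARO9 and ARO10, which break aromatic amino acids down, rose 6.72- and 5.8-fold. In nitrogen supply 11 of 36 rose (30.6%), a share near that of all genes, and 4 fell (11.1%). Without CoCl2 replicates 1 or 2, 7 rose, and without WT replicates 1 and 3, 7 and 6 rose. None fell without CoCl2 replicate 1. UGA1, of GABA breakdown, went from 22.5, 23.9 and 25.5 CPM to 163 and 109 CPM. LYS9, of lysine synthesis, rose 2.77-fold evenly, from 122, 128 and 130 CPM to 369 and 335 CPM.

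Autophagy genes rose, with 22 of 36 higher and none lower (median 0.77), beside 27.7% and 19.4% of all tested genes. ATG39, a receptor for autophagy of the nucleus, went from 11.4, 10.9 and 9.7 CPM to 50.1 and 31.5 CPM, and ATG33, of mitophagy, from 15.3, 18.4 and 18.7 CPM to 79 and 44.7 CPM. The vacuole list had 13 of 36 genes higher and 11 lower, or 8 and 5 without CoCl2 replicate 1. The named members that rose were hydrolases or a carrier, among them PEP4, the main vacuolar protease, from 558, 535 and 596 CPM to 1264 and 1127 CPM. Those that fell were subunits or an assembly factor of the proton pump. VMA9 went from 74.4, 71.1 and 73 CPM to 28.1 and 24.2 CPM, 2.78-fold lower, and VMA3 fell 2.4-fold. Proteasome genes gave 13 rises and 1 fall among 43, a share of rises near that of all genes and a smaller share of falls, and 3 rises without CoCl2 replicate 1 or 7 without any WT library. RPN4, the activator of proteasome genes, rose 3.8-fold, from 74.2, 77.8 and 80.4 CPM to 229 and 360 CPM, and UMP1, an assembly chaperone, fell 2.05-fold.

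Genes of division and chromatin had more falls than rises, and most were not called. Among all tested genes 27.7% rose and 19.4% fell. Among 60 genes of DNA replication, histones and nucleotide reduction 20 fell and 4 rose (median −0.37), with 2 rises without WT replicate 2 or 3 or CoCl2 replicate 1 and 1 without CoCl2 replicate 2. HHO1, the linker histone, went from 74.5, 71.3 and 80.3 CPM to 23.6 and 18.1 CPM, 3.6-fold lower (SE of log2 0.287, adjusted p = 0.000195). HHF2, a histone H4, fell 2.98-fold, from 144, 144 and 143 CPM to 47.2 and 49.1 CPM, and HTZ1, a histone H2A variant, 3.1-fold. The CoCl2 libraries of these histone genes were close to each other. Among 36 cell cycle genes 14 fell and 4 rose, or 2 rose without WT replicate 1. CDC20, an activator of the anaphase-promoting complex, went from 78.4, 78 and 82.9 CPM to 31.1 and 29.3 CPM. The forkhead factors FKH1 and FKH2 both fell 2.36-fold, and FAR1, which arrests cells in G1, rose 1.88-fold, from 127, 130 and 130 CPM to 213 and 274 CPM.

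Cell wall genes had 13 of 40 members lower and 2 higher, or 7 and 8 lower without CoCl2 replicates 1 and 2. Those 13 were 32.5% of the list, beside 27.7% rises and 19.4% falls among all tested genes, and with total counts 7 fell. CIS3, a wall mannoprotein, fell 3.68-fold, from 3436, 3384 and 3587 CPM to 755 and 1131 CPM. Among 49 genes of meiosis and sporulation 26 rose and 2 fell (median 0.95). IME2, a kinase that starts meiosis, went from 5.34, 6.21 and 8.02 CPM to 49 and 24.8 CPM, 5.7-fold higher, and UME6, which represses early meiotic genes, fell 2.71-fold, from 34.5, 38.3 and 39.9 CPM to 15.7 and 11.8 CPM. Among 33 genes of cAMP, TOR and Snf1 signalling 14 rose and 3 fell, and 0 and 1 fell without CoCl2 replicates 1 and 2. TPK3, a catalytic subunit of protein kinase A, rose 8.48-fold, from 13.6, 19.5 and 24.3 CPM to 133 and 191 CPM. YAK1, a kinase that slows growth, went from 47.7, 48.6 and 58.5 CPM to 201 and 199 CPM. Drug efflux and membrane genes had 13 of 27 higher and 4 lower, or 1 lower without CoCl2 replicate 1. PMP3, a small membrane protein, rose 7.57-fold, from 7.71, 8.52 and 7.6 CPM to 51.4 and 69.2 CPM.

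The remaining lists were mixed, beside 27.7% rises and 19.4% falls among all tested genes. ER folding and quality control had 3 of 28 genes higher and 4 lower, or 2 lower without CoCl2 replicate 2, with ERO1, the oxidase that forms disulfide bonds, 2-fold higher. Lysine, leucine, isoleucine and valine synthesis had 5 of 21 higher and 4 lower, and the falls were 0 without CoCl2 replicate 1. Purine and pyrimidine synthesis had 1 of 33 higher and 6 lower, and the falls were 1, 14 and 3 without CoCl2 replicate 1, CoCl2 replicate 2 or WT replicate 2. The uridine permease FUI1 was 2.84-fold lower there. Mating had 3 of 33 higher and 6 lower, or 2 lower without CoCl2 replicate 1, with STE12, the pheromone response factor, 2.1-fold lower. Hexose transport and phosphorylation had 7 of 14 higher and 1 lower. Of 1088 tested genes with no symbol, 399 rose and 166 fell.

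The same treatment moved other numbers of genes in the deletion strains. In rox1 269 genes rose (4.85%) and 178 fell (3.21%). In rox2 the numbers were 1458 (26.3%) and 1209 (21.8%), and in rox1/rox2 they were 243 (4.38%) and 78 (1.41%). These comparisons share no library with that in WT but share its estimate of the spread. Of the 269 genes at least 4-fold higher with CoCl2 in WT, 65 were called higher in rox1 (24.2%, median log2 0.82), 250 in rox2 (92.9%, median 2.19) and 96 in rox1/rox2 (35.7%, median 1.31). None was called lower in any of the strains. The genes were picked on their WT values, which favours larger values in WT. YHB1 and HMX1 rose in every strain. In rox1 with CoCl2 they reached 421 ± 89.7 and 44.6 ± 16.8 CPM (SD, n = 2), and in WT with CoCl2 1922 ± 331 and 197 ± 53.8 CPM.

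The difference in response between WT and rox1 itself passed the test for 261 genes (4.71%). In 216 of them the log2 change in WT was above that in rox1, and 213 of the 261 had been called higher and 43 lower in WT. Of all tested genes 47% had been called in WT. The test of the difference holds the same 5 WT libraries, so this overlap follows in part from the design. Between WT and rox2 the number of genes that passed was 5 (0.0902%), and between WT and rox1/rox2 it was 22 (0.397%). At an unadjusted p under 0.05 the numbers were 1373, 773 and 822. The number for rox1 fell to 26, 24 and 90 without WT replicates 1, 2 and 3 and to 66 without CoCl2 replicate 1. For rox2 it was 0 or 1 without any 1 of the 5 WT libraries, and for rox1/rox2 it was 8 and 5 without WT replicates 1 and 2 and 34 and 5 without CoCl2 replicates 1 and 2. NCAS0B02500 had 4.83 ± 2.1 CPM in WT (SD, n = 3) and 379 ± 136 with CoCl2 (n = 2), against 3.71 ± 0.211 and 6.01 ± 4.18 in rox1 (n = 2 each), a difference in log2 change of 5.64 (SE 0.871, adjusted p = 0.00883). HSP104 rose from 108 ± 20.6 to 1218 ± 297 CPM in WT and stood at 98.2 ± 6.35 and 104 ± 68.3 CPM in rox1, a difference of 3.41 (SE 0.546, adjusted p = 0.00883). HSP104 and NCAS0B02500 kept these calls in every alternative. PHM7, a membrane protein gene, had differences of 3.07 against rox1 and 3.33 against rox1/rox2 (adjusted p = 0.00447 and 0.00442). For HSP104 and PHM7 the rox1 groups without and with CoCl2 were near each other, while the WT groups were far apart. HMX1 and YHB1 had differences of 1.28 and 1.71 between WT and rox1 (adjusted p = 0.258 and 0.0563), and DESeq2 gave YHB1 an adjusted p of 0.00917.

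**Figure D5:**
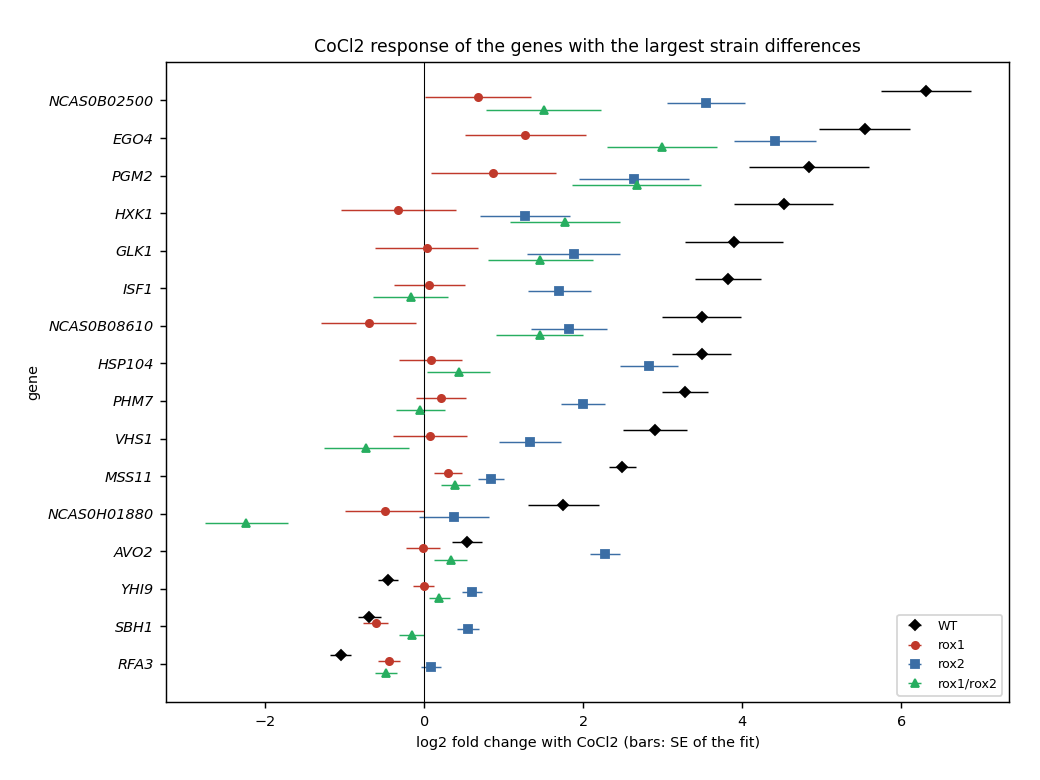
Log2 fold change with CoCl2 in WT (diamonds), rox1 (circles), rox2 (squares) and rox1/rox2 (triangles) for the genes with the largest differences in response, with the SE of the fit as bars. HSP104 lies at 3.49 in WT and 2.83 in rox2, against 0.08 in rox1 and 0.43 in rox1/rox2.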

How the data were processed

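RNA-seq reads per gene were compared between 3 untreated and 2 CoCl2-treated WT libraries. The submitters' processing notes name TopHat2 and HTSeq 0.6.0. The aligner's version, genome build, annotation and strand setting are not given in the sources used here. The authors deposited raw counts, with 5852 entries per file in this experiment, 1 per exon, which were summed to 5648 genes. The 5 counter entries per file were set aside. Symbols came from RefSeq (ASM23734v1), where 5589 loci matched and 4484 had a symbol, and no coordinates or sequences are given.

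Libraries were scaled by TMM and genes kept by filterByExpr (minimum count 10). All 18 libraries of the deletion experiment were fitted together with 8 group means in edgeR 4.0.16 (R 4.3.3, glmQLFit and glmQLFTest, two-sided), with p-values adjusted by Benjamini and Hochberg across the 5544 genes (threshold 0.05). The oxygen experiment was fitted apart. The common dispersion had square roots of 0.199 and 0.0684. An SE is the absolute log2 fold change divided by the square root of F. The scripts were tested on simulated data.

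The 46 lists hold 1842 distinct S. cerevisiae names, of which 1487 were in the table and 1478 tested. The members and lists were chosen with earlier results of these data known. Named were the 15 largest rises and falls (adjusted p under 0.05, mean log2 CPM of at least 4, no overlap of groups), up to 5 called members per list and direction, any member of the haem, regulator, hypoxic, iron, iron-sulfur and metal lists, the 6 largest differences per strain (mean log2 CPM of at least 4), and related pairs called in opposite directions. Partners of other named genes (HXK2, MPC2, GPP1) were chosen after their values were seen. DESeq2 1.42.0 and other alternatives are given in the closing section.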

Additional observations from a re-analysis of the deposited data

Results flagged for a closer look

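The response to CoCl2 in WT differed by a test of the difference itself for 261 genes against rox1, 5 against rox2 and 22 against rox1/rox2. The largest differences against rox1 were ranked among genes with a mean log2 CPM of at least 4 over all 18 libraries. As log2 change in WT minus that in rox1, they were those of NCAS0B02500 (5.64), HXK1 (4.85), EGO4 (4.27), NCAS0B08610 (4.19), PGM2 (3.98) and GLK1 (3.87). HXK1, NCAS0B08610 and GLK1 lost their calls without WT replicate 1 (adjusted p = 0.0559, 0.0614 and 0.0856) or 2 (0.0724, 0.064 and 0.0936), GLK1 also without CoCl2 replicate 1 (0.107). EGO4 and PGM2 lost theirs without any WT library or CoCl2 replicate 1 (EGO4 at 0.0598 to 0.0936, PGM2 at 0.0535 to 0.141), and PGM2 also without CoCl2 replicate 2 (0.0527). NCAS0B02500 kept its call against rox1 in every alternative.

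Against rox2 the 5 genes were AVO2 (−1.73), MSS11 (1.65), SBH1 (−1.24), RFA3 (−1.14) and YHI9 (−1.06), all with an adjusted p of 0.0317. Each lost its call in most fits that left out a library. SBH1 and RFA3 stood at −0.36 and −0.48 after the length correction. MSS11 had 12.5, 17.7 and 12.7 CPM in untreated WT. It had 61.2 ± 4.43 CPM in untreated rox1 (SD, n = 2) and 57.9 ± 5.03 in untreated rox2 (n = 3).

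Against rox1/rox2 the largest were NCAS0B02500 (4.81), ISF1 (3.99), NCAS0H01880 (3.98), VHS1 (3.63), PHM7 (3.33) and HSP104 (3.06). PHM7 kept its call in every alternative and the others lost theirs in 2 or more of the fits that left out a library. NCAS0H01880 rose 3.36-fold with CoCl2 in WT, 5.49-fold without CoCl2 replicate 1 and 1.23-fold without replicate 2.

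Reads outside genes, which no comparison used, were 7.9% and 7.89% in WT CoCl2 replicates 1 and 2 and at most 5.19% in untreated WT. Their part in the results was not tested.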

How the results depend on the processing

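Each count was recomputed under RLE factors, total counts, no filter, DESeq2, the 5 libraries alone (WT counts only), a length correction, a replicate block and without each library. Main counts were 1533 genes higher, 1074 lower, 822 and 429 of them at least 2-fold, and 261, 5 and 22 differing from rox1, rox2 and rox1/rox2. Total counts, which moved the median of all genes from 0.00 to 0.25 log2, gave 1872 higher and 623 lower, 250 at least 2-fold lower, and 85 and 0 differing from rox1 and rox2. Of the lists with 4 or more calls in a direction, total counts gave rises of 13 metal transport, 10 coenzyme Q, 23 mitochondrial ribosome, 8 iron-sulfur and 12 lysine, leucine, isoleucine and valine genes, and falls of 0 in the last 2 lists, 1 mitochondrial ribosome, 6 import, 5 phospholipid, 9 RNA polymerase, 3 purine and pyrimidine, 3 arginine, 5 sulfur, 2 nitrogen, 6 vacuole, 2 ER and 7 cell wall genes. DESeq2 gave 639, 143 and 229 differing. The replicate block gave 1517 higher, 1164 lower, 435 differing from rox1 and 0 from rox2, and 53 ribosome biogenesis and 9 aminoacyl-tRNA synthetase genes lower. Same-numbered WT and CoCl2 libraries deviated with r of −0.0562 and 0.331. The deviations of 2 CoCl2 libraries from their mean mirror each other, so these values cannot decide whether the numbers mark pairs. The main fit did not take them as pairs. The length correction gave 0 differing from rox2. Leaving out 1 library gave 1009 to 1504 higher, 461 to 1217 lower, 648 to 912 and 203 to 757 at least 2-fold, and 24 to 296, 0 to 1 and 5 to 34 differing. The cause was not tested. Of 355 named called genes 217 kept the call in every fit, 118 lost it without CoCl2 replicate 1 and 38 without CoCl2 replicate 2, and none of the 355 changed sign. Of the 55 named genes that were not called, 25 changed sign in at least 1 alternative. The planned description of promoter motifs was not run, since no promoter sequences were used here. With 2 CoCl2 libraries the spread is taken from all 18, and a fit that leaves 1 of them out assumes that the other varies like the other groups.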
